A study of Rattus norvegicus with 12 samples.

Results

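The Wnt pathway genes described here are 47 of the 17301 genes listed for adult rat ventricular myocytes (ARVMs). They were picked by gene symbol, with earlier results of these data known. They are the Wnt ligands, the Fzd receptors, the Sfrp, Dkk and Wif1 antagonists, the coreceptors Lrp5 and Lrp6, the acyltransferase Porcn, the Dvl and Axin proteins and the TCF/LEF transcription factors present among the rows. ARVMs from male Sprague-Dawley rats were transduced at a multiplicity of infection of 50 with an adenovirus, and RNA was sequenced 48 h later. In the Ad-h-NR4A2 group (6 samples) the virus carried human NR4A2 cDNA, a nuclear receptor and transcription factor, under the cytomegalovirus promoter, and in the control group Ad-GFP (6 samples) it carried green fluorescent protein. All samples were thus cultured and virus-exposed, no untransduced cells were sequenced, and the transgene is driven by a viral promoter far above the level of the rat gene. Each group holds samples numbered 24 to 29, and cells came from different rats in 6 independent experiments. Levels are FPKM, the fragments on a transcript scaled to its length and to the mapped fragments of the sample, so that levels of different genes may be compared.

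Wnt ligands are secreted, lipid-modified glycoproteins that bind Frizzled receptors. With Lrp5 or Lrp6 as coreceptor, binding recruits Dishevelled and Axin, which releases β-catenin from its destruction complex and lets it act with TCF/LEF factors on target genes. Other ligands, of which Wnt5a is the best known, act mainly without β-catenin through calcium and planar polarity signaling. The pathway patterns the embryonic heart, is quiet in the healthy adult myocardium, and is known to be reactivated in hypertrophy and after infarction.

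Nr4a2 FPKM was between 0.626 and 1.40 in the Ad-GFP samples and between 445 and 592 in the Ad-h-NR4A2 samples. Fragments of the human transgene that align to the rat gene cannot be told apart from those of the endogenous transcript. The implied depth was 18800000 to 28000000 fragments per sample. The summed FPKM of 5 cardiomyocyte markers was 8368 to 9932 in Ad-GFP and 7148 to 8223 in Ad-h-NR4A2, without overlap. That of 9 fibroblast markers was 5.98 to 31.2 over all samples, with Col1a2 listed at 0 throughout.

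Promoter sequences are shown for 3 members: Wnt5a and Fzd9, the members with the largest positive fold changes, and Axin2, whose transcription is a standard readout of β-catenin signaling. They are the 250 bases before the gene start in RefSeq (build GRCr8), all on the + strand. Wnt5a lies at chr16:3703415-3703664, Fzd9 at chr12:27063390-27063639 and Axin2 at chr10:94398535-94398784. Capitals mark matches to the TCF/LEF core ATCAAAG or TTCAAAG on either strand, and sequences without such a match are in lower case.
Wnt5a: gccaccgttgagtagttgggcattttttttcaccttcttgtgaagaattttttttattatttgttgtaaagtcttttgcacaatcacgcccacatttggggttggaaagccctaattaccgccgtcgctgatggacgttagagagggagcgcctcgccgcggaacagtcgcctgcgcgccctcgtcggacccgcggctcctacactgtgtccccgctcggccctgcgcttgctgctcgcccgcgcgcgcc
Fzd9: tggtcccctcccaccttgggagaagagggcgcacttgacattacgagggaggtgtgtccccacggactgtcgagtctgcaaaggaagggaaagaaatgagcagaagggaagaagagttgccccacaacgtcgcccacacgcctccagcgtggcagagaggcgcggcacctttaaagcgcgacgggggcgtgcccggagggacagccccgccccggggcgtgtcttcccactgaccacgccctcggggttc
Axin2: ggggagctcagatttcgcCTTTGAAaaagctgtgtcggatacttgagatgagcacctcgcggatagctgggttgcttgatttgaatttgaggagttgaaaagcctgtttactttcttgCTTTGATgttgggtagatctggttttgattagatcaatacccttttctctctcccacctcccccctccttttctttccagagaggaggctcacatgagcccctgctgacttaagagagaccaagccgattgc
The Wnt5a window had a GC content of 57.2% and 25 CpG dinucleotides, and that of Fzd9 had 64.8% and 20. The Axin2 window had 47.6% and 5, close to the medians of 51.2% and 5 over all 33469 promoters of the table. The Axin2 window held a TTCAAAG match that begins 232 bases before the start and an ATCAAAG match that begins 132 bases before it, both on the - strand. Of the 47 members, 33 had a promoter in the table, and 3 of the 33 (Axin2, Dkk1 and Wnt8a) held a TCF/LEF match, compared with 7.58% of all promoters of the same length. The NBRE AAAGGTCA, the site at which NR4A receptors bind as monomers, was searched on both strands. Its first letters AAAG are also the last of the TCF/LEF core, so that matches may overlap. It was found in 0 of the 33 windows and in 1.24% of all promoters. These matches describe the letters in the window only.

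Of the 47 members, 25 were above 0 in all 12 samples and could be tested, 14 were above 0 in some samples, and 8 were listed at 0 throughout. Ligands were the least represented: 4 of 18 were above 0 in every sample, against 7 of 9 Frizzled receptors and all of the Lrp, Dvl and Axin members. By level in the Ad-GFP samples, the leading members were Dkk3 (45.1 ± 6.93 FPKM, SD, n = 6), Fzd1 (30.3 ± 6.32), Dvl3 (23.6 ± 1.36) and Axin1 (23.1 ± 2.46). The ranges of Fzd1, Dvl3 and Axin1 overlapped in these samples, and the lowest Dkk3 value, 35.0 FPKM, lay within the range of Fzd1 (23.3 to 39.5).

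**Figure D1:**
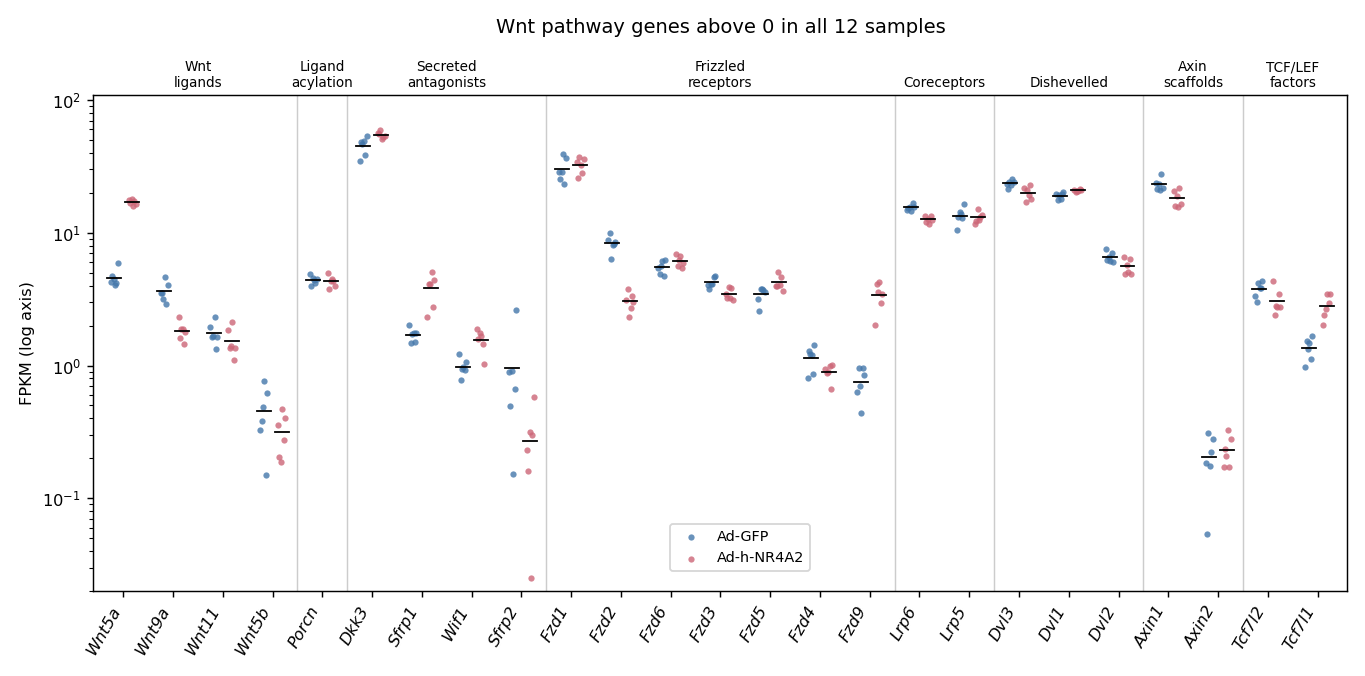
FPKM (log axis) of the 25 Wnt pathway genes above 0 in all 12 samples, grouped by role; each point is a sample, blue for Ad-GFP and red for Ad-h-NR4A2, and the bars are means of 6. The groups separate fully for Wnt5a, Wnt9a, Sfrp1, Fzd2, Fzd9, Lrp6, Dvl1 and Tcf7l1.

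Of the 25 tested members, 15 changed at an adjusted p below 0.05 (limma with Benjamini-Hochberg adjustment over all 10950 tested genes), 8 higher and 7 lower in Ad-h-NR4A2, where 40.9% of all tested genes were called, 19.3% higher and 21.7% lower. With a ratio of group means of at least 1.5 as well, 8 members remained, 5 higher (Wnt5a, Fzd9, Sfrp1, Tcf7l1 and Wif1) and 3 lower (Fzd2, Wnt9a and Sfrp2). The corresponding shares of all tested genes were 15.2% in either direction, 7.94% higher and 7.24% lower. The groups did not overlap for 8 members, 5 higher and 3 lower, where 21.5% of all tested genes did not overlap. The median log2 fold change of the 25 members was -0.04 and that of all tested genes was -0.02. No test of the members as a list was made. With same-numbered samples paired by a replicate block, 19 members were called, 9 higher and 10 lower, against 59.4% of all tested genes. The 4 further members were Wnt11, Fzd4, Fzd6 and Dvl2.

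**Figure D2:**
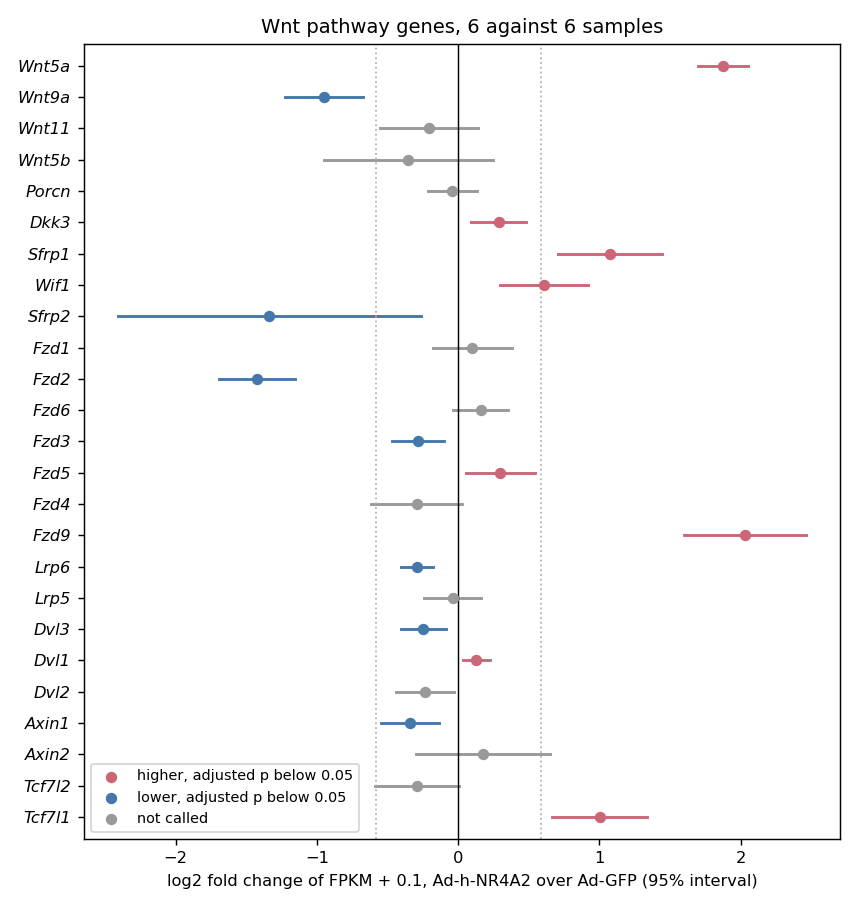
Log2 fold change of FPKM + 0.1 in Ad-h-NR4A2 over Ad-GFP for the 25 tested Wnt pathway genes, with 95% intervals from limma (6 samples per group); red and blue mark genes called higher and lower, gray those not called, and dotted lines a ratio of 1.5 either way. Fzd9 (2.03) and Wnt5a (1.87) lie farthest to the right, and Fzd2 (-1.43) and Sfrp2 (-1.34) farthest to the left, with the widest interval at Sfrp2.

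Among the ligands, Wnt5a rose and Wnt9a fell, while Wnt11 and Wnt5b were not called. Wnt5a (Rn5 chr16:4414512-4435554) was at 4.06, 4.37 and 5.89 FPKM (lowest, median and highest) in Ad-GFP and at 16.0, 17.0 and 17.9 in Ad-h-NR4A2. Every Ad-h-NR4A2 sample was above every Ad-GFP sample, and the Ad-GFP sample farthest from its group was number 29. The mean increased from 4.60 ± 0.671 to 17.0 ± 0.689 FPKM (3.70-fold, log2 fold change 1.87, SE 0.08, adjusted p = 2.24e-09 from limma), the smallest adjusted p of any member. The two-sided exact permutation test, which ignores the sample numbers, gave p = 0.00216, the smallest that 6 against 6 unpaired samples allow. Fragments numbered 467 to 867 in Ad-GFP and 1837 to 2413 in Ad-h-NR4A2. Over all tested genes, 152 had a larger positive log2 fold change.

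Wnt9a, a ligand that signals mainly through β-catenin (Rn5 chr10:45414117-45441637), was at 2.92, 3.53 and 4.62 FPKM in Ad-GFP and at 1.45, 1.83 and 2.34 in Ad-h-NR4A2. The groups did not overlap, and Wnt9a was lower in all 6 same-numbered pairs. Its mean fell from 3.63 ± 0.610 to 1.83 ± 0.300 FPKM (log2 fold change -0.95, SE 0.13, adjusted p = 5.63e-05 from limma). Wnt3a, the neighbor of Wnt9a with a gap of 20.4 kb in Rn5, had 1 fragment in each group in total.

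Wnt11, a ligand of planar polarity and heart development, averaged 1.76 ± 0.334 FPKM in Ad-GFP and 1.53 ± 0.381 in Ad-h-NR4A2. The ranges overlapped, yet Wnt11 was lower in every pair. The log2 fold change was -0.20 (95% interval -0.55 to 0.14, adjusted p = 0.340 from limma), and adjusted p = 0.0321 with the replicate block. Wnt5b, the close paralog of Wnt5a, was at 0.455 ± 0.219 FPKM in Ad-GFP and at 0.315 ± 0.111 in Ad-h-NR4A2, with a log2 fold change of -0.35 (95% interval -0.95 to 0.24, adjusted p = 0.336).

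The summed FPKM of all 18 ligands was 10.7 ± 1.33 in Ad-GFP (8.78 to 12.4) and 21.2 ± 0.785 in Ad-h-NR4A2 (20.4 to 22.4), without overlap. Wnt5a made up 43.1% ± 5.19 of this sum in Ad-GFP and 80.3% ± 2.74 in Ad-h-NR4A2. The ligand transcripts of the Ad-GFP samples were thus split mainly between Wnt5a and Wnt9a, and those of the Ad-h-NR4A2 samples were mostly Wnt5a.

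**Figure D3:**
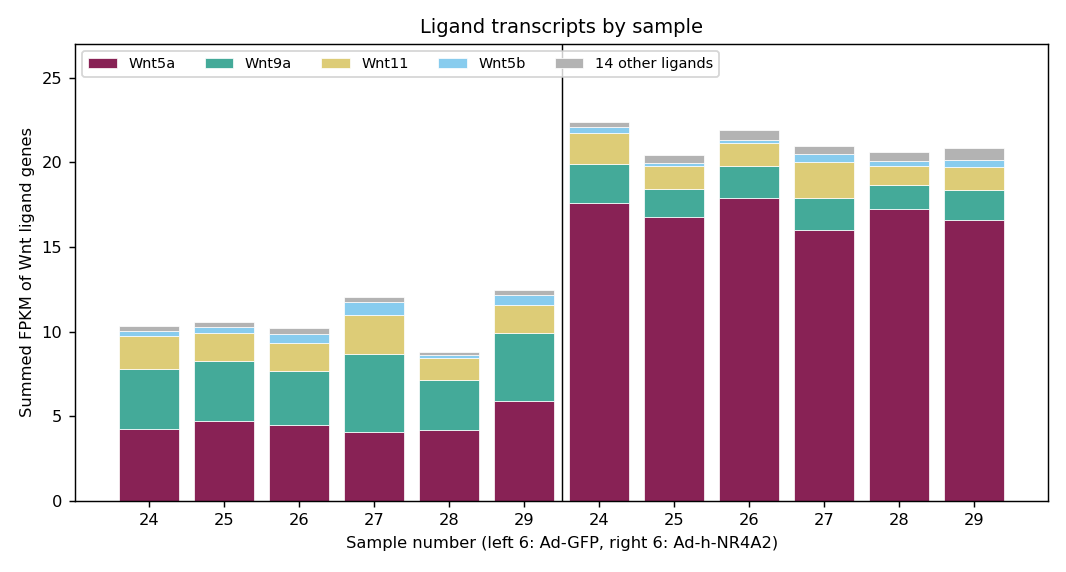
Summed FPKM of the 18 Wnt ligand genes in each sample, stacked by gene, with the 6 Ad-GFP samples left of the line and the 6 Ad-h-NR4A2 samples right of it. The totals run from 8.78 to 12.4 on the left and from 20.4 to 22.4 on the right, where Wnt5a takes 76.2% to 83.6%.

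The other 14 ligands were too low to test with all 12 samples above 0. Wnt4, a ligand of kidney and gonad development, was the highest of them in Ad-h-NR4A2, with a mean of 0.349 ± 0.165 FPKM (53 fragments over 6 samples) against 0.0753 ± 0.0501 in Ad-GFP (11 fragments). It was at 3, 1, 3, 0, 2 and 2 fragments in Ad-GFP samples 24 to 29 and at 1, 10, 10, 8, 11 and 13 in the Ad-h-NR4A2 samples, so that only Ad-h-NR4A2 sample 24 lay within the Ad-GFP range. Without the filter on low values, its log2 fold change was 1.28 (adjusted p = 0.00873 from limma), and the exact permutation test gave p = 0.0130. The Wnt4 row spans a region of Rn5 that also holds Bc1, Cdc42 and Cela3b, and its assignment is uncertain.

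Wnt16 had 1 fragment over the Ad-GFP samples and 11 over the Ad-h-NR4A2 samples (log2 fold change 0.52, adjusted p = 0.0162 from limma without the filter). Wnt2b had 33 and 14 fragments (log2 fold change -0.62, adjusted p = 0.0514 from the same fit). The exact permutation test gave p = 0.0281 for Wnt16 and 0.0390 for Wnt2b. Wnt16 was at 0 in all Ad-GFP samples but number 27, so that its log2 fold change depends on the added 0.1. These values rest on a few fragments per sample, at most 3 for Wnt16 and 7 for Wnt2b. Wnt7a had 11 and 6 fragments, and Wnt1, Wnt3, Wnt3a, Wnt9b and Wnt10b had at most 4 in either group. Wnt6, Wnt7b, Wnt8a, Wnt8b and Wnt10a were listed at 0 in all samples. For the members with 1 transcript listed at 0, among them these ligands, a 0 allows up to 3 fragments, or 0.0353 to 0.185 FPKM depending on the sample and transcript length.

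Porcn, the enzyme that attaches the lipid to Wnt ligands, was at 4.44 ± 0.323 FPKM in Ad-GFP and 4.31 ± 0.422 in Ad-h-NR4A2 (log2 fold change -0.04, 95% interval -0.22 to 0.13, adjusted p = 0.716 from limma). Its interval leaves out a change of 1.5-fold either way. Wls, the carrier that brings ligands to the cell surface, is no member and is named here after its values were seen. It fell from 102.6 ± 9.81 to 71.7 ± 7.17 FPKM, without overlap of the groups (log2 fold change -0.52, adjusted p = 1.16e-04).

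Of the secreted antagonists, Sfrp1, Wif1 and Dkk3 were called higher, and Sfrp2 was called lower, a call lost under 14 of 20 alternatives. These are the 4 tested of 9, where 40.9% of all tested genes were called. Sfrp1, a frizzled-related protein that binds Wnt ligands outside the cell (Rn5 chr16:73006739-73045509), was at 1.47, 1.73 and 2.02 FPKM in Ad-GFP and at 2.34, 4.11 and 5.10 in Ad-h-NR4A2. The groups did not overlap, and the spread was wider in Ad-h-NR4A2. Its mean increased from 1.70 ± 0.202 to 3.81 ± 1.04 FPKM (2.24-fold, log2 fold change 1.08, SE 0.17, adjusted p = 2.16e-04 from limma).

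Sfrp2, of the same family (Rn5 chr2:202136233-202143778), went the other way. It was at 0.152, 0.783 and 2.62 FPKM in Ad-GFP and at 0.0252, 0.264 and 0.575 in Ad-h-NR4A2. The groups overlapped, although Sfrp2 was lower in all 6 pairs, and the highest value of each group came from sample number 29. By limma, Sfrp2 changed by -1.34 on the log2 scale (SE 0.50, adjusted p = 0.0454, or 5.85e-05 with the replicate block). The call was lost on leaving out any of 10 of the 12 samples (adjusted p up to 0.101), and without Ad-GFP sample 29 the log2 fold change was -0.99 (adjusted p = 0.0878). Values rest on 7 to 133 fragments in Ad-GFP and 1 to 24 in Ad-h-NR4A2.

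Wif1, which also binds Wnt ligands directly, was at 0.776, 0.955 and 1.23 FPKM in Ad-GFP and at 1.03, 1.63 and 1.88 in Ad-h-NR4A2. The ranges overlapped, and Wif1 was higher in 5 of 6 pairs (log2 fold change 0.61, SE 0.14, adjusted p = 0.00413 from limma). Dkk3, a divergent Dickkopf protein, is placed among the antagonists by family name only. It was at 35.0, 47.5 and 53.3 FPKM in Ad-GFP and at 50.5, 54.5 and 59.1 in Ad-h-NR4A2. It was higher in all 6 pairs with overlapping ranges (1.21-fold, log2 fold change 0.29, SE 0.09, adjusted p = 0.0215). Dkk3 made up 92.3% of the summed FPKM of the 9 antagonists in Ad-GFP and 90.4% in Ad-h-NR4A2. Dkk1 and Sfrp5 were listed at 0 throughout, and Dkk2, Dkk4 and Sfrp4 had at most 5 fragments in any sample.

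Among the Frizzled receptors, Fzd9 rose and Fzd2 fell, each without overlap, while Fzd1, the most abundant, was not called. Fzd2, a receptor to which Wnt5a binds (Rn5 chr10:90343133-90345043), was at 6.30, 8.36 and 10.0 FPKM in Ad-GFP and at 2.32, 3.05 and 3.76 in Ad-h-NR4A2. Its mean fell from 8.34 ± 1.21 to 3.04 ± 0.501 FPKM (log2 fold change -1.43, SE 0.12, adjusted p = 1.13e-06 from limma), and 80 of the 10950 tested genes had a more negative fold change. In Ad-GFP Fzd2 was the second Frizzled by mean level, above Fzd6, and in Ad-h-NR4A2 its mean was below those of Fzd6, Fzd5, Fzd3 and Fzd9. In that group the range of Fzd2 overlapped those of Fzd3, Fzd5 and Fzd9, and only the ranges of Fzd1 and Fzd6 lay wholly above it. Within each sample of that group, Fzd5 was also above Fzd2.

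Fzd9 (Rn5 chr12:26471284-26473598) was at 0.440, 0.773 and 0.965 FPKM in Ad-GFP and at 2.02, 3.52 and 4.26 in Ad-h-NR4A2. All Ad-h-NR4A2 samples were above all Ad-GFP samples. Its mean increased from 0.756 ± 0.204 to 3.40 ± 0.821 FPKM (4.49-fold, log2 fold change 2.03, SE 0.20, adjusted p = 3.59e-06 from limma), on 24 to 56 fragments per sample in Ad-GFP and 94 to 242 in Ad-h-NR4A2. Of all tested genes, 120 had a larger positive log2 fold change.

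Smaller changes were called for Fzd3, a receptor of axon guidance and planar polarity, and for Fzd5. Fzd3 fell from 4.25 ± 0.363 to 3.47 ± 0.336 FPKM (log2 fold change -0.29, SE 0.08, adjusted p = 0.0158 from limma), lower in all pairs with overlapping ranges. Fzd5 increased from 3.44 ± 0.483 to 4.24 ± 0.541 FPKM (log2 fold change 0.30, SE 0.11, adjusted p = 0.0488), higher in all pairs. The Fzd5 call was lost on leaving out any of 9 samples (adjusted p up to 0.110).

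Fzd1 was at 30.3 ± 6.32 FPKM in Ad-GFP and 32.3 ± 4.46 in Ad-h-NR4A2 (log2 fold change 0.10, 95% interval -0.18 to 0.38, adjusted p = 0.575 from limma). Fzd6 (log2 fold change 0.16, adjusted p = 0.175) and Fzd4 (-0.29, adjusted p = 0.135) were not called either, but passed with the replicate block (adjusted p = 0.0444 and 0.0426). The summed FPKM of the 9 Frizzled genes was 53.8 ± 6.99 in Ad-GFP and 53.5 ± 4.46 in Ad-h-NR4A2, of which Fzd1 made up 56.0% and 60.1%. Fzd10 was listed at 0 in all samples, and Fzd8 was above 0 in 5 of 12.

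**Figure D4:**
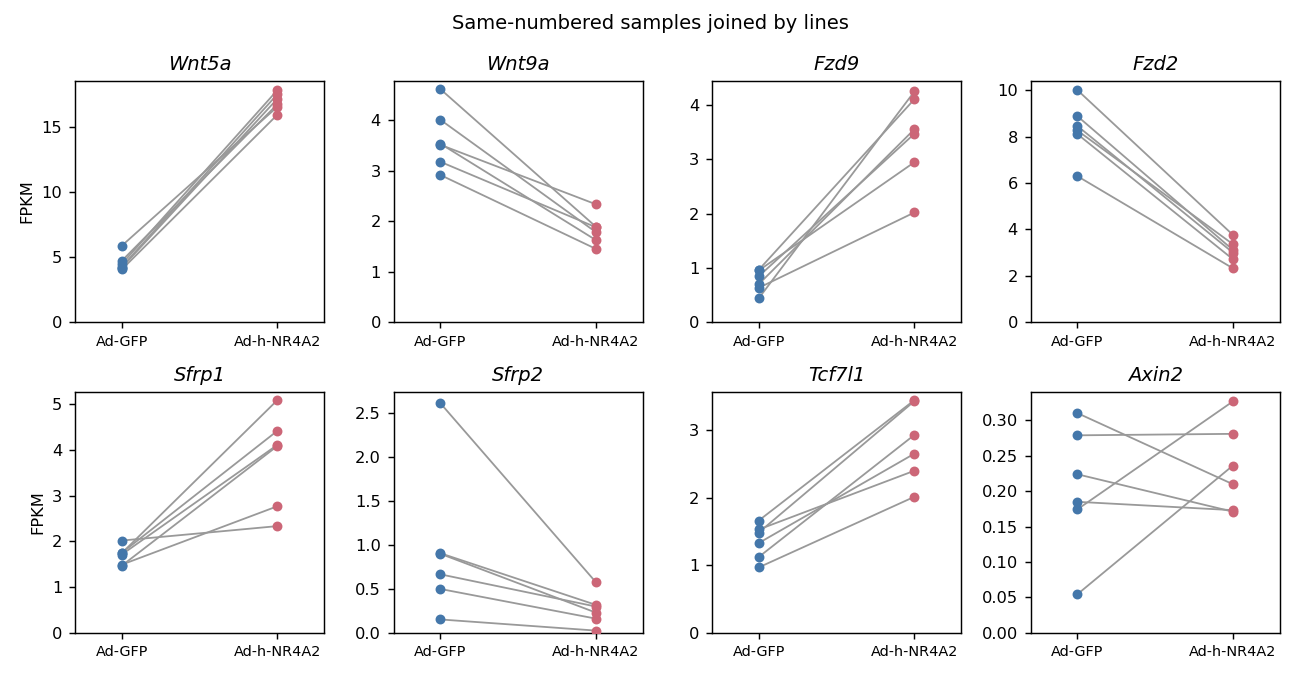
FPKM of 8 Wnt pathway genes in each sample, with same-numbered Ad-GFP (blue) and Ad-h-NR4A2 (red) samples joined by gray lines. The lines rise in all pairs for Wnt5a, Fzd9, Sfrp1 and Tcf7l1 and fall in all pairs for Wnt9a, Fzd2 and Sfrp2, and those of Axin2 cross.

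Of the coreceptors, Lrp6 changed and Lrp5 did not pass the test. Lrp6 (Rn5 chr4:232477066-232579512) was at 14.6, 15.5 and 16.8 FPKM in Ad-GFP and at 11.7, 12.6 and 13.4 in Ad-h-NR4A2, without overlap. The fall was modest, at -0.29 on the log2 scale (SE 0.05, limma adjusted p = 6.15e-04). Lrp5 was at 13.5 ± 1.90 FPKM in Ad-GFP and 13.1 ± 1.20 in Ad-h-NR4A2 (log2 fold change -0.04, 95% interval -0.24 to 0.16, adjusted p = 0.774).

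Of the Dishevelled proteins, which relay the signal from Frizzled in every Wnt branch, Dvl3 was called lower and Dvl1 higher, both by small amounts, and Dvl2 was not called. Dvl3 fell from 23.6 ± 1.36 to 19.9 ± 2.32 FPKM (log2 fold change -0.25, SE 0.07, adjusted p = 0.0163 from limma). Dvl1 was at 19.1 ± 0.967 FPKM in Ad-GFP and 20.8 ± 0.412 in Ad-h-NR4A2, without overlap (log2 fold change 0.13, SE 0.04, adjusted p = 0.0306), but its call was lost without any of 6 samples (adjusted p up to 0.0685) and when FPKM were rescaled to TPM (adjusted p = 0.107). Dvl2 was at 6.58 ± 0.601 and 5.60 ± 0.770 FPKM (log2 fold change -0.23, adjusted p = 0.0650), lower in all pairs. It passed with the replicate block (adjusted p = 0.00256), and without Ad-h-NR4A2 sample 24 or 28 (adjusted p = 0.0254 and 0.0391).

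Axin1, the scaffold of the β-catenin destruction complex, fell from 23.1 ± 2.46 to 18.3 ± 2.63 FPKM (log2 fold change -0.34, SE 0.10, adjusted p = 0.0109 from limma). It was lower in every pair, although the ranges overlapped. Axin2, its paralog and a direct target of β-catenin, was at 0.0543, 0.204 and 0.310 FPKM in Ad-GFP and at 0.171, 0.223 and 0.327 in Ad-h-NR4A2. It was higher in 3 pairs and lower in 3, with a log2 fold change of 0.17 (95% interval -0.30 to 0.65, adjusted p = 0.563). These values rest on 3 to 23 fragments per sample, and changes within this interval are not excluded.

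Tcf7l1, a TCF factor that often represses its targets (Rn5 chr4:165263183-165426980), was at 0.970, 1.41 and 1.66 FPKM in Ad-GFP and at 2.02, 2.80 and 3.45 in Ad-h-NR4A2. The groups did not overlap, and the mean increased 2.08-fold (log2 fold change 1.00, SE 0.16, adjusted p = 1.88e-04 from limma). Tcf7l2, the most abundant of the family in Ad-GFP, was at 3.76 ± 0.512 FPKM and at 3.08 ± 0.698 in Ad-h-NR4A2, with overlap (log2 fold change -0.29, 95% interval -0.59 to 0.003, adjusted p = 0.105). It was not called, except without Ad-h-NR4A2 sample 24 (log2 fold change -0.40, adjusted p = 0.0162). Lef1 had 15 fragments over the Ad-GFP samples and 5 over the Ad-h-NR4A2 samples and was listed at 0 in some samples. Of the summed FPKM of these 3 genes, Tcf7l2 made up 72.0% ± 5.26 in Ad-GFP and 51.8% ± 8.95 in Ad-h-NR4A2.

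Across the 25 tested members, all 6 same-numbered pairs pointed 1 way for 16, 7 higher and 9 lower, as did 53.2% of all tested genes. Of the 8 members called with a ratio of at least 1.5, Wif1 was the exception. Relative spread also differed among members. Among tested members in Ad-GFP, the coefficient of variation was lowest for Lrp6 (5.03%) and Dvl1 (5.07%) and highest for Sfrp2 (89.9%).

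Markers of other cell types were read beside these values, where 40.9% of all tested genes were called, and 59.4% with the replicate block. The fibroblast list summed to 9.25 to 31.2 FPKM in Ad-GFP and 5.98 to 27.6 in Ad-h-NR4A2, and of its 8 tested genes 1 was called, Col3a1, which was lower (adjusted p = 0.0239 from limma). With the replicate block in limma 3 were called, all lower, among them Col1a1 (adjusted p = 0.00616) and Pdgfra (adjusted p = 0.0101). Col1a1 and Pdgfra were lower in all 6 pairs, as were 29.1% of all tested genes. The 6 endothelial markers summed to 6.95 to 21.4 and 5.90 to 20.7 FPKM, with 0 called by limma and 0 at an unadjusted p below 0.05, but with the replicate block Kdr was called lower (adjusted p = 0.00409). Of 6 smooth muscle and pericyte markers, summing to 13.6 to 24.6 and 9.80 to 20.2 FPKM, Myh11 and Cspg4 were lower among 5 tested. The macrophage list summed to 6.15 to 17.4 FPKM in Ad-GFP and 39.0 to 45.9 in Ad-h-NR4A2, most of it Csf1r in every sample. Csf1r (10.1 to 40.2 FPKM on average) and Cd14 were higher among 4 tested. Cd68 and Adgre1 were not called, and the pan-leukocyte gene Ptprc averaged 0.0258 FPKM in Ad-GFP and 0.0218 in Ad-h-NR4A2. Of the 5 cardiomyocyte markers, Myh6, Myh7, Tnnt2 and Ryr2 were lower and Actn2 higher. The part of any of these in the Wnt gene values was not tested, and in bulk RNA fewer cells of a type and less RNA per cell cannot be told apart.

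The rest of the pathway was read from 6 lists of 101 other genes, of which 88 were present and 69 tested. Of these, 36 (52.2%) were called, 11 higher and 25 lower, with a median log2 fold change of -0.11, where 40.9% of all tested genes were called, 19.3% higher and 21.7% lower. A ratio of at least 1.5 was reached by 13 (18.8%), 7 higher and 6 lower, compared with 15.2% of all tested genes. With the replicate block 44 of the 69 were called, 14 higher and 30 lower, against 59.4% of all tested genes. In the destruction complex and β-catenin list 7 of 20 tested genes (35%) were called, 6 lower and 1 higher, none with a ratio of 1.5, against the 40.9% of all tested genes. With the replicate block 11 were called, 8 lower and 3 higher, where 59.4% of all tested genes were. Ctnnb1, β-catenin itself, averaged 158 FPKM in Ad-GFP and 153 in Ad-h-NR4A2 (log2 fold change -0.04, adjusted p = 0.555 from limma). Ctnnbip1, the 1 gene called higher without the block, averaged 5.53 and 8.17 FPKM, without overlap of the groups (log2 fold change 0.56, adjusted p = 9.67e-06 from limma). Both are named here after their values were seen.

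Of 14 nuclear cofactors, 8 (57.1%) were called, 7 lower and 1 higher, where 40.9% of all tested genes were called and 21.7% were lower. Bcl9l, a β-catenin coactivator, fell from 8.46 ± 0.728 to 4.83 ± 0.699 FPKM (log2 fold change -0.80, adjusted p = 2.01e-05 from limma). Tle1, a Groucho corepressor of TCF factors, increased from 1.71 ± 0.239 to 2.86 ± 0.574 FPKM (log2 fold change 0.70, adjusted p = 0.00102). Neither gene had overlapping groups. Of 9 planar polarity genes, 3 were higher and 2 lower (55.6% called). Of 7 further receptors and turnover genes 2 were lower (28.6%), and of 3 secretion genes and modulators 2 were lower (66.7%). With the replicate block 10 nuclear cofactors were called, 1 higher and 9 lower, and 7 planar polarity genes, 4 higher and 3 lower. The receptor and secretion lists kept 2 calls each. With the block, 59.4% of all tested genes were called.

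Of 16 target and feedback genes, 12 were called, 6 higher and 6 lower, and 10 of them had a ratio of at least 1.5, 5 higher and 5 lower. These are 75% and 62.5% of the list, against 40.9% and 15.2% of all tested genes. The list was chosen with earlier results of these data known, so that no conclusion is drawn from these shares. Myc, Cd44, Id2 and Birc5 were higher, from 24.9 to 42.0, from 10.6 to 16.6, from 5.68 to 9.18 and from 0.533 to 1.59 FPKM on average. Gja1, which encodes the main gap junction protein of the ventricle, was lower, from 374 ± 52.2 to 204 ± 44.9 FPKM (log2 fold change -0.89, adjusted p = 9.57e-05 from limma). Fosl1 and Bambi were lower as well, from 5.12 to 2.85 and from 26.4 to 17.5 FPKM. The median log2 fold change of the list was 0.004. Many other signals act on these targets, and the cause of their changes was not tested.

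**Figure D5:**
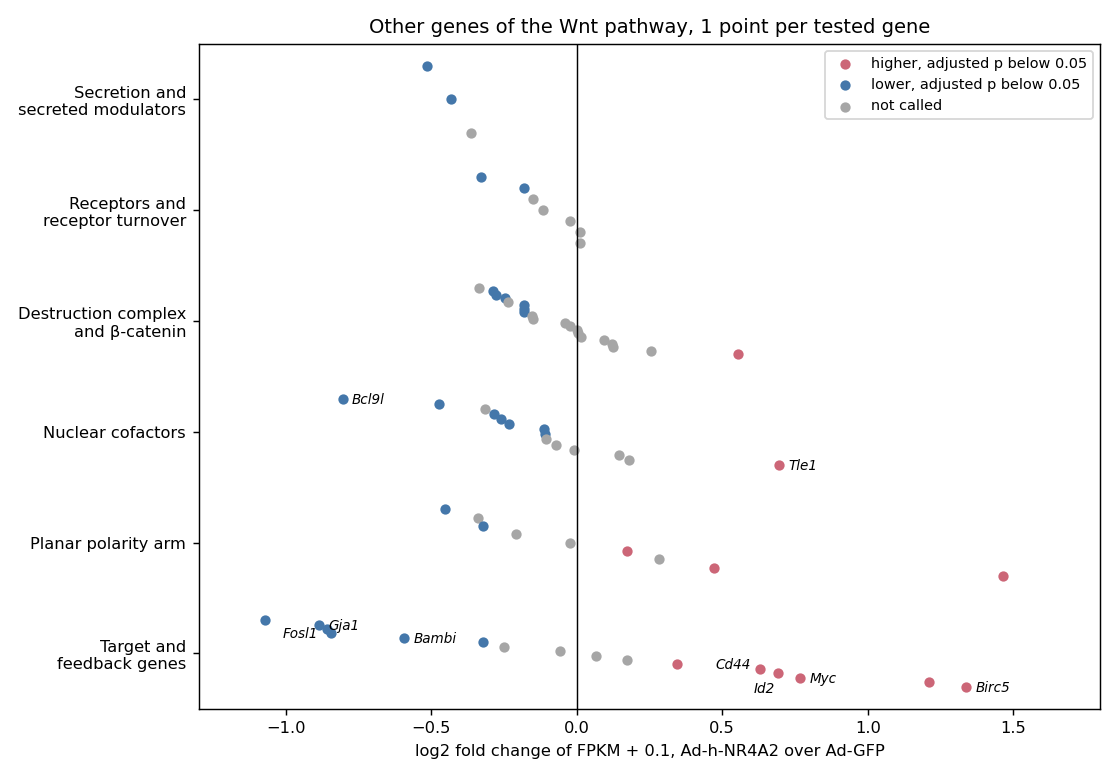
Log2 fold change of FPKM + 0.1 in Ad-h-NR4A2 over Ad-GFP for 69 tested genes of the Wnt pathway outside the 47 members, 1 point per gene, by list; red and blue mark genes called higher and lower, and gray those not called. Genes of the destruction complex and β-catenin list lie between -0.34 and 0.56, and the target and feedback genes spread from -1.07 to 1.34.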

How the data were processed

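RNA of 12 ARVM samples was sequenced by the authors from stranded mRNA libraries. As their methods state, reads were aligned to Rn5 with STAR and quantified with Cufflinks, and the FPKM values deposited by the authors are used here without their later filters. Groups and sample numbers come from the sample labels. Symbols matched the Wnt pathway pattern in 49 transcript rows (47 genes), and a gene with several transcripts was represented by that with the highest mean FPKM.

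Log2(FPKM + 0.1) of 10950 genes above 0 in all 12 samples was fitted with limma 3.58.1 (eBayes with trend) in R 4.3.3, two-sided and unpaired, with Benjamini-Hochberg adjustment over all tested genes. Fold changes are on this scale and understate changes of low genes. Ratios are of mean FPKM. Exact permutation tests were two-sided and unpaired over 924 splits, so that they ignore the pairing by sample number. The fit was tested on simulated data with independent samples, so that the pairing by sample number was not covered. Python 3.11.15 (pandas 2.3.3, NumPy 2.4.6, Matplotlib 3.10.9) served for tables and plots.

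Depth and fragments were recovered from the steps of low FPKM values, where 99.2% to 99.9% of values of at most 6 fragments per sample were whole within 0.1 on transcripts of at least 800 nucleotides. Fragment numbers are for genes with 1 transcript and cover counting error only. Same-numbered samples deviated together (correlations 0.347 to 0.623, other numbers at most 0.189), so that the numbers pair the samples, although the labels do not say what a number stands for.

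The members and lists were chosen with earlier results of these data known. All called members are named, the other pathway genes by an adjusted p below 0.05, a mean FPKM of at least 1 and a ratio of at least 1.5, and genes named outside this rule are marked as such. The alternatives tried were a pseudocount of 1 or 0.01, all genes above 0 in any sample, a minimum mean FPKM of 1, summed transcripts, quantile normalization, TPM in place of FPKM, no trend in eBayes, a replicate block, a ratio of 2 and each sample left out.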

Additional observations from a re-analysis of the deposited data

Results flagged for a closer look

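Groups of 6 samples were examined for 33 members, the named pathway genes and the sums by role. Of these 100 groups, 8 held a sample far from the other 5 by Dixon's criterion. Its nominal rate of about 1 in 20 groups assumes independent, normally distributed values, which values of few fragments are not. In Ad-GFP, sample 29 was the highest for Wnt5a (5.89 FPKM, group median 4.37) and for Sfrp2 (2.62 FPKM, median 0.783). For Wnt5a it was still below all Ad-h-NR4A2 samples. In Ad-GFP sample 28, Wnt7a was at 0.0613 FPKM, or 5 fragments, and in Ad-GFP sample 27, Wnt16 was at 0.0263 FPKM, or 1 fragment, with the other 5 samples at 0. Among the other pathway genes, Ad-h-NR4A2 sample 29 stood apart for Cd44 (23.2 FPKM, median 16.1) and Id2 (6.51 FPKM, median 9.51). Ad-h-NR4A2 sample 24 stood apart for Birc5 (0.516 FPKM, median 1.68) and Gja1 (293 FPKM, median 187), in both cases towards the Ad-GFP values.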

How the results depend on the processing

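Of the 15 called members, 12 kept their direction and stayed below an adjusted p of 0.05 (limma) under every alternative in which they were tested. The log2 fold change ran from 1.69 to 1.95 for Wnt5a, from 1.31 to 2.17 for Fzd9 and from -1.51 to -1.21 for Fzd2. The exceptions were Dvl1, Fzd5 and Sfrp2, whose calls were lost in 7 of 21, 11 of 21 and 14 of 20 alternatives without a change of direction, and whose cause was not tested. Sfrp2 lost its call with pseudocounts of 1 and 0.01, without the filter or the trend (adjusted p 0.0565, 0.0573, 0.0611 and 0.0563), and without any sample other than Ad-GFP 27 and Ad-h-NR4A2 29 (0.0533 to 0.101). Fzd5 lost it without the filter and on the TPM scale (0.0645 and 0.0721), and without any sample other than Ad-GFP 26 and 27 and Ad-h-NR4A2 29 (0.0501 to 0.110). Dvl1 lost it without Ad-GFP 25, 26 or 27 or Ad-h-NR4A2 26, 28 or 29 (0.0506 to 0.0685) and on the TPM scale. Fzd4 was called after quantile normalization (0.0311). The uncalled members Axin2 and Lrp5 changed sign when a sample was left out. The log2 fold change of Axin2 ran from -0.0087 (without Ad-GFP 25) to 0.27, and that of Lrp5 from -0.11 to 0.019 (without Ad-GFP 29). Members called numbered 12 to 16 over all alternatives but the replicate block (19), and 6 passed a ratio of 2. The block lost no call. Fosl1 missed the threshold without Ad-GFP 29, Ad-h-NR4A2 25 or 27 (adjusted p 0.0501 to 0.0523). The 14 members above 0 in only some samples rest on few fragments.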
